A study of Rattus norvegicus with 18 samples.

Results

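The genes described here encode the nuclear subunits of the mitochondrial respiratory chain and ATP synthase, in oligodendrocyte progenitor cells (OPCs) of the rat. They were taken by name: every gene whose symbol begins with Nduf, Uqcr or Atp5, the genes Sdha to Sdhd, and those beginning with Cox followed by a number from 4 to 8. The rule found 87 of the 17337 genes in the files. They comprised 34 genes of complex I, 4 of complex II, 8 of complex III, 16 of complex IV and 15 of complex V, counting Ndufa4 with complex IV, and 10 genes that the names also take in but that are not subunits, among them 6 assembly factors of complex I. Genes on the mitochondrial genome were not included.

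OPCs are the glial progenitors that divide in the central nervous system and give rise to the oligodendrocytes that form myelin. The study sequenced total RNA from 18 libraries in 6 groups of 3. Primary cells were magnetically sorted OPCs from aged or neonate rats, where the age is known only from the letter in the sample title. The other 4 groups were aged or neonate OPCs cultured with the growth factors FGF and PDGF on laminin-coated hydrogels, either soft or stiff. The ages, the strain, the gel stiffness in physical units, and whether replicate libraries came from separate animals or from pools are not given in the sources used here, so a p-value reflects the variation among these libraries, which may be technical.

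In oxidative phosphorylation, complexes I and II take electrons from NADH and succinate and pass them to ubiquinone. Complex III hands them on to cytochrome c, and complex IV to oxygen, while complexes I, III and IV pump protons out of the mitochondrial matrix. Complex V, the ATP synthase, lets the protons back in through a membrane ring and couples the flow to ATP synthesis in its F1 head. A few subunits of complex IV exist in more than one form, with one gene used in most tissues and another mainly in muscle, lung or testis.

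The libraries were shallow for these genes. Coverage corresponded to 33939 to 141883 read pairs on annotated exons per library, and to 22631 to 107899 once ribosomal RNA was left out. All 87 genes together held between 104 and 638 of these pairs in a library, so most single genes rested on a few pairs. Over the tested members, 40.1% of the values were an exact 0, beside 41.4% over all tested genes, and such a gene is described here only as listed at 0. The 3 libraries that are replicate 1 of an aged group covered 12371 to 14999 genes and 54.7% to 77.2% of the 1197 olfactory receptor genes, whose place of use is the nasal epithelium. The other 2 aged libraries on soft gels, with 10536 and 10849 genes and 39.2% and 30.8% of the olfactory receptor genes, also stood above the remaining 13, which had at most 18.9%. Some results are also given without the first 3, called broadly covered here. This leaves the 2 other aged libraries on soft gels in place. Summed markers of OPCs reached 770 to 872 scaled TPM in neonate primary cells and 86.1 to 186 in aged primary cells, where summed microglial markers reached 2740 to 4601 against 129 to 242.

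Levels are given as scaled TPM, that is, length-normalised transcript abundance divided by a factor per library from the genes covered in all libraries. Of the 87 genes, 15 were above 0 in all 18 libraries, 54 in 9 or more, 11 in 3 or fewer, and 1, Ndufa1, in none. The mean level over the libraries ran from 0 to 346 scaled TPM with a median of 12.2, beside a median of 4.96 over all genes in the files. In the heat map of the members by library, the median gene was above 0 in 16.5 libraries in complex II and 14 in complex V. It was above 0 in 13.5 in complex III, 11.5 in complex I and 6 in complex IV. The genes of complex IV include 5 tissue forms, above 0 in 2 to 6 libraries, which lower its median.

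**Figure D1:**
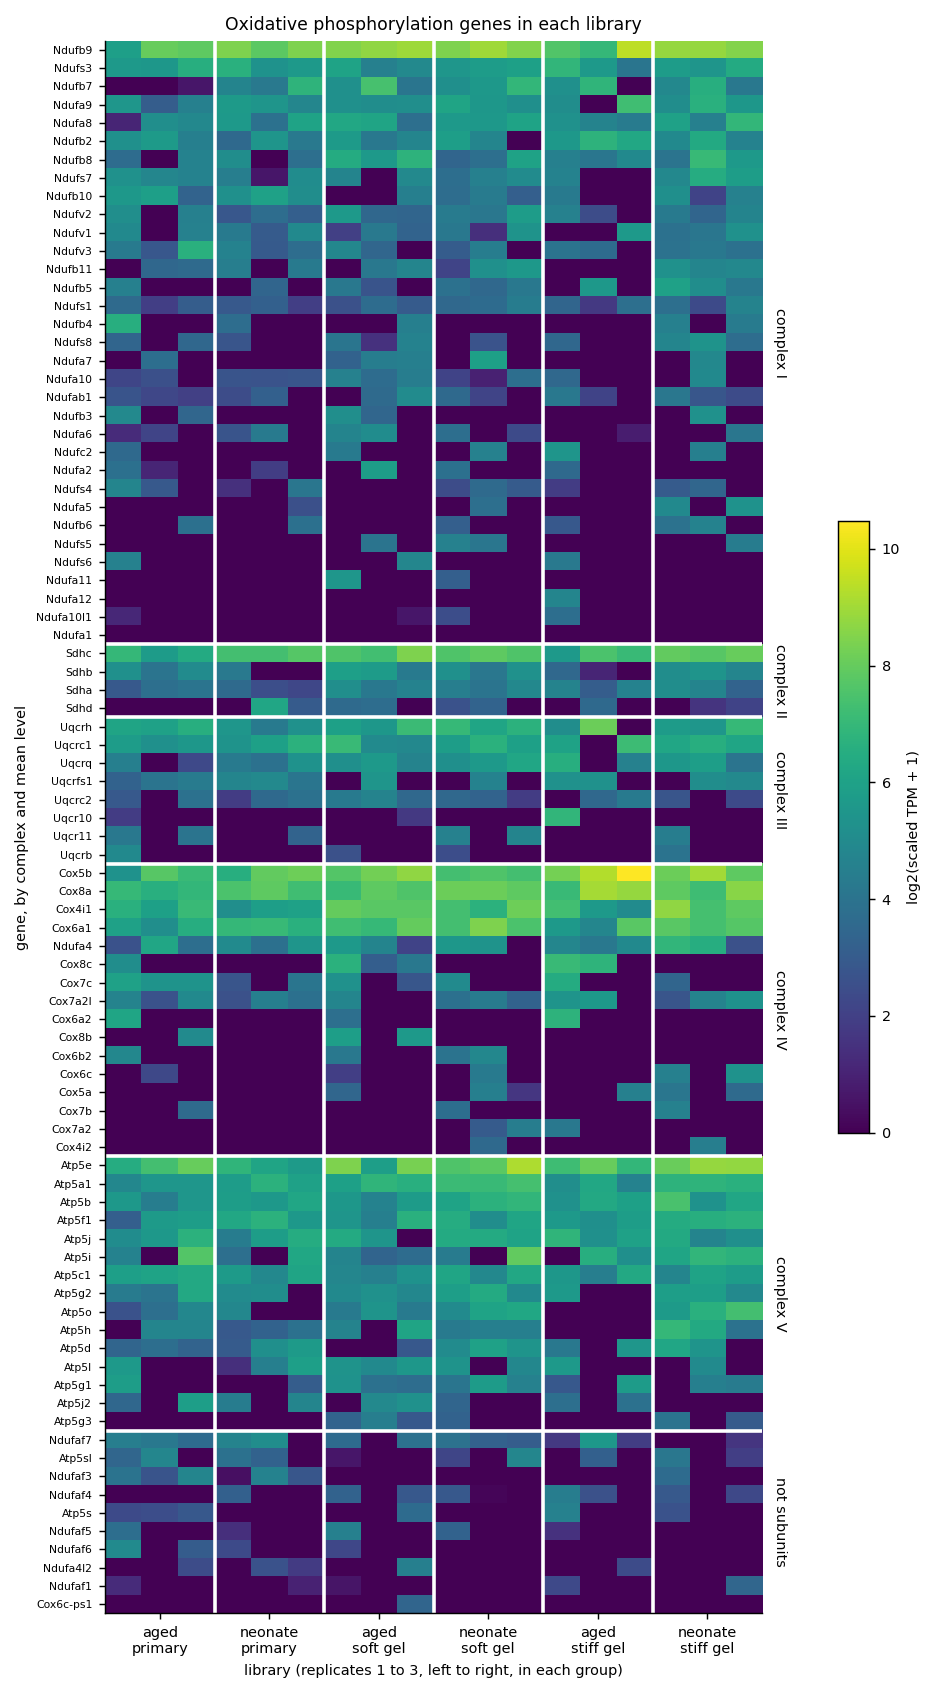
Level of 86 of the 87 genes (rows, grouped by complex and ordered by mean level) in each of the 18 libraries (columns, 3 per group), as log2(scaled TPM + 1) on a colour scale from 0 (dark) upwards. Ndufb9, Sdhc, Cox5b, Cox8a and Atp5e are bright in every group, and 33 genes are above 0 in fewer than 9 libraries.

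Promoter sequences are shown for 3 of the 4 called members, all but Atp5h, and for the highest members of complex IV. Known binding motifs of factors that act on respiratory chain genes were searched on both strands in the 300 bases around the start site of 74 of the 87 genes that had an entry in RefSeq (build GRCr8). The core of the nuclear respiratory factor NRF1, GCGCATGC, was found in 14.9% of these promoters and in 2.66% of all 27457 promoters. The core of the ETS factor GABPA, CCGGAAGT, was found in 9.46% against 4.01%, and that of YY1, AAGATGGCG, in 13.5% against 1.93%. At least 1 of the motifs was present in 35.1% against 8.06%. The 120 bases before the start are printed 5′ to 3′ in the direction of the gene, with matches to the NRF1 or GABPA core on either strand in capitals; in Atp5o the capitals cover 2 overlapping matches, 1 on each strand, and Ndufb11 has no match.
Atp5o (RefSeq Atp5po, GRCr8 chr11:44657484-44657603, minus strand): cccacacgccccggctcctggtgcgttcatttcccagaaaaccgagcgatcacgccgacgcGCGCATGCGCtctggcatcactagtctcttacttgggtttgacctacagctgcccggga
Ndufb11 (GRCr8 chrX:4126197-4126316, plus strand): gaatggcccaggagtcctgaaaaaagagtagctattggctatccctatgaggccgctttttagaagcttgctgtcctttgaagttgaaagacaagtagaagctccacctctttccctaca
Ndufb7 (GRCr8 chr19:41477292-41477411, minus strand): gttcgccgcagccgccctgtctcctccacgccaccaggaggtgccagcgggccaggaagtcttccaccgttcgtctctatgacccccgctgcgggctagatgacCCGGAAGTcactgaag
Cox5b (GRCr8 chr9:46417717-46417836, plus strand): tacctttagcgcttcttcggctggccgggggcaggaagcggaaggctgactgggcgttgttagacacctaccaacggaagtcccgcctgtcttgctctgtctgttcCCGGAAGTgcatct
Cox8a (GRCr8 chr1:213833624-213833743, minus strand): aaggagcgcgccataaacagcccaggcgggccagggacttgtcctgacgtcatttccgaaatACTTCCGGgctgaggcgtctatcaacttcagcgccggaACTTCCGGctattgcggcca
A match describes the letters only, and no match says only that these letters are not in the window.

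In complex I, whose 7 nuclear core subunits form the peripheral arm, with the flavin and the iron-sulphur clusters, beside a larger number of supernumerary subunits, Ndufb9, a supernumerary subunit of the membrane arm, had the highest mean of all members. Its levels were 59.7, 263 and 230 scaled TPM in aged primary cells and 351, 227 and 348 in neonate primary cells. They were 353, 424 and 494 in aged, against 342, 500 and 359 in neonate cells on soft gels, and 195, 123 and 694 in aged, against 453, 453 and 367 in neonate cells on stiff gels. The aged and neonate libraries overlapped on both gels and in the primary cells. Ndufs3, a core subunit of the peripheral arm, followed at a mean of 56.5, from 15.6 to 117 over the 18 libraries, and Ndufb7 at 48.3; Ndufs3 lies on the opposite strand to, and overlaps, Kbtbd4. The other 31 genes of complex I had means from 0 to 45.2, and Ndufa11, Ndufa12 and Ndufa1 were covered in 2, 1 and 0 libraries.

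Complex II, succinate dehydrogenase, is shared with the citrate cycle and has only nuclear subunits. Sdhc, a membrane anchor, was above 0 in all libraries at a mean of 177 scaled TPM, Sdha, the flavoprotein that oxidises succinate, at a mean of 17.7, and the other anchor, Sdhd, at 7.46 with 9 libraries above 0. Sdhb, the iron-sulphur subunit, had a mean of 24.5, with group means from 3.89 to 43.8. Its levels were 37.7, 15.2 and 32.2 in aged primary cells, 17.9, 0 and 0 in neonate primary cells, 59.8, 53.1 and 18.5 on soft, against 10.5, 1.14 and 0 on stiff gels in aged cells, and 37.5, 16.9 and 38.5 on soft, against 34.4, 41.3 and 26.1 on stiff gels in neonate cells. The lowest group means were those of aged cells on stiff gels and of neonate primary cells.

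In complex III, Uqcrh, the hinge protein that contacts cytochrome c1, had a mean of 78.3 scaled TPM, Uqcrc1, a core protein, 66.7, and Uqcrq 33.4. Uqcrb, Uqcr10 and Uqcr11 were covered in 4, 3 and 6 libraries. In complex IV, Cox5b, Cox8a, Cox4i1 and Cox6a1 were above 0 in all libraries, at means of 322, 230, 153 and 147. Their partners in the same enzyme, Cox5a, Cox6c, Cox7a2 and Cox7b, had means of 2.50 to 4.89 and were above 0 in 3 to 6 libraries, although each assembled enzyme holds these subunits together with Cox5b and Cox4i1. Among all 87 members, the annotated transcript length, with a median of 704 bases beside 1831 for all genes, had a Spearman rho of 0.01 with the mean level and of 0.34 with the number of libraries above 0. The 39 members with a named pseudogene copy in RefSeq, between which reads can be split, had a median of mean levels of 17.0 scaled TPM, and the other 48 had 10.1. These are descriptions across genes, which are not independent replicates.

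The tissue forms of complex IV were covered in few libraries. Cox4i2, the form known from lung, was above 0 in 2 libraries, at a mean of 1.80 scaled TPM beside 153 for its widely used counterpart Cox4i1. Cox6a2, the heart and muscle form, was above 0 only in replicate 1 of the 3 aged groups, at 70.5, 13.2 and 108, the libraries with many olfactory receptor genes, beside a mean of 147 for Cox6a1. Cox8b, also known from heart and muscle, was above 0 in 3 aged libraries, 2 on soft gels at 56.9 and 48.0 and 1 of primary cells at 31.2. Cox8c, known from testis, was above 0 in 6 libraries and in these all cells were aged; the levels were 34.3, 0 and 0 in primary cells, 103, 7.80 and 17.3 on soft gels, and 135, 110 and 0 on stiff gels. Cox6b2, another testis form, was above 0 in 4 libraries. Cox6b1, Cox7a1 and Cox7b2, which the naming rule would take in, are not among the genes in the files under these names.

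In complex V, Atp5e, a small subunit of the F1 stalk, had the highest mean at 230 scaled TPM, and the alpha and beta subunits of the catalytic head, Atp5a1 and Atp5b, had means of 83.3 and 64.7. The 3 genes for subunit c of the membrane ring, which encode the same mature protein, had means of 35.6 for Atp5g2, 17.9 for Atp5g1 and 3.74 for Atp5g3. Across libraries, the sum over all 87 genes was 1806 to 2639 in aged, against 2153 to 2549 in neonate primary cells, 2887 to 3649 in aged, against 3106 to 3958 in neonate cells on soft gels, and 2859 to 4131 in aged, against 3919 to 4233 in neonate cells on stiff gels. In these sums all 12 gel libraries lay above all 6 primary libraries. The order of the ages, and that of gels and primary cells, depended on the scale. As a share of the TPM outside ribosomal RNA, the members took 0.476% to 0.678% in aged, against 0.867% to 0.966% in neonate primary cells. These shares do not overlap, whereas the sums of scaled TPM did. By share of TPM the gel libraries held 0.748% to 1.60% in aged, against 1.11% to 1.44% in neonate cells. These lay above primary cells of the same age, but the lowest aged one lay below all neonate primary libraries. By share of read pairs outside ribosomal RNA, aged against neonate cells held 0.271% to 0.364% against 0.497% to 0.542% in primary cells. On soft gels they held 0.445% to 0.591% against 0.684% to 0.790%, and on stiff gels 0.352% to 0.735% against 0.760% to 0.841%. By read pairs, aged cells on stiff gels thus overlapped aged primary cells. A few genes led the sum: in replicate 3 of the aged cells on stiff gels, the highest aged library, Cox5b stood at 1414 and Ndufb9 at 694 scaled TPM.

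**Figure D2:**
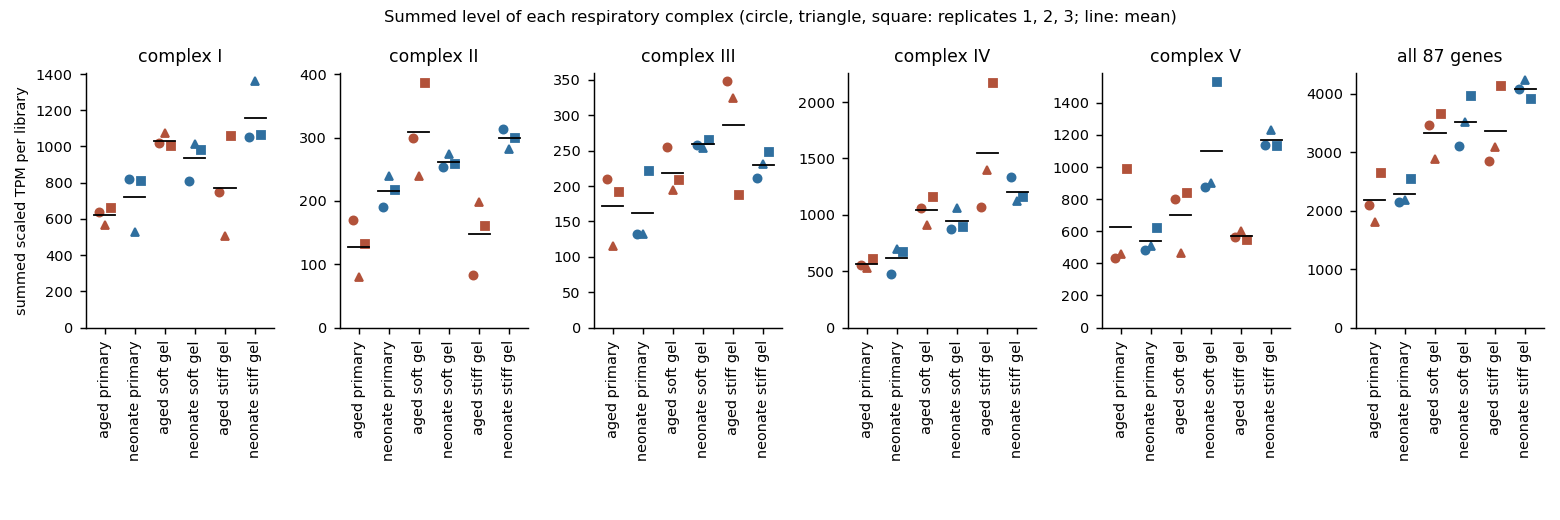
Summed scaled TPM of the genes of each complex, and of all 87 genes, in each library (vertical axes from 0, in scaled TPM). Symbols are replicates 1 to 3 and lines are group means; red is aged and blue is neonate. Complex V in aged cells on stiff gels (548 to 605) lies below neonate cells on stiff gels (1133 to 1233), and complex IV in the same aged cells reaches 2171 in 1 library.

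Most of the called members were found between aged and neonate cells on stiff gels. In this comparison 3 of the 82 members that passed the filter on low values were lower in aged cells and none was higher, beside 2.18% of all 15128 genes tested that were called in either direction (limma, Benjamini-Hochberg adjustment). The called genes encode 2 subunits of the ATP synthase stalk, Atp5o and Atp5h, and Ndufb11 of the membrane arm of complex I.

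Atp5o encodes the oligomycin sensitivity protein that joins the F1 head to the side stalk (rn6 chr11:32081606-32087918, minus strand). Its levels were 0, 0 and 0 scaled TPM in aged, against 51.4, 97.6 and 160 in neonate cells on stiff gels. The neonate values rested on 3.40, 4.47 and 10.2 read pairs. The difference in log2(scaled TPM + 1) was -6.56 ± 1.01 (SE, adjusted p = 0.000345), which depends on the pseudocount of 1 since the gene was listed at 0 in all aged libraries. On soft gels the same gene was at 18.6, 41.6 and 18.5 in aged, against 31.4, 66.2 and 73.5 in neonate cells, where the groups overlap.

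Atp5h encodes another protein of the side stalk (rn6 chr10:103967350-103972513, minus strand). It was listed at 0 in all 3 aged and was at 124, 81.8 and 14.3 scaled TPM in neonate libraries on stiff gels, a difference of -5.76 ± 1.26 (adjusted p = 0.0100). Ndufb11 (rn6 chrX:1787266-1789524, plus strand) was listed at 0 in all 3 aged and was at 38.1, 25.8 and 28.4 in neonate libraries, a difference of -4.97 ± 1.31 (adjusted p = 0.0408). The call of Atp5o held under all 17 alternatives. That of Atp5h was lost without replicate 1 or without replicate 2 of the neonate cells on stiff gels (highest adjusted p = 0.0723), and that of Ndufb11 was lost in 12 of 17, including without each of the 6 libraries in turn (highest adjusted p = 0.142). Without the 3 broadly covered libraries Atp5o differed by -6.58 ± 1.15 (limma, adjusted p = 0.00398), Atp5h by -5.78 ± 1.28 (adjusted p = 0.0155) and Ndufb11 by -5.00 ± 1.22 (adjusted p = 0.0265). The aged libraries left on stiff gels in that fit covered 6850 and 5842 genes.

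Counting without the test, 12 of the 82 members (14.6%) had all 3 aged values below all 3 neonate values on stiff gels, beside 4.80% of all genes tested, and 1 member, the assembly factor Ndufaf7, lay wholly above, beside 5.62%. Among the 12 were Atp5a1, Atp5e, Atp5f1, Atp5h and Atp5o of complex V, Ndufb11, Ndufs7 and Ndufs8 of complex I, Sdhb and Sdhc of complex II and Cox4i1 of complex IV. Sdhc was at 47.7, 178 and 137 scaled TPM in aged, against 246, 214 and 262 in neonate cells, with a difference of -1.18 ± 0.52 (adjusted p = 0.317). Cox4i1, a subunit through which complex IV is regulated, was at 157, 48.0 and 32.2 against 420, 164 and 230, with a difference of -1.99 ± 0.59 (adjusted p = 0.0777). Neither passed the test. Of the members above 0, Cox8c (4.63 ± 1.55, adjusted p = 0.143), Ndufaf7 (2.52 ± 1.28, adjusted p = 0.396) and Uqcr10 (2.30 ± 1.20, adjusted p = 0.414) had the lowest p and did not pass either; Cox8c and Uqcr10 were at 135 and 119 in replicate 1, a broadly covered library. Without the 3 broadly covered libraries the difference of Cox8c was 3.42 ± 1.31 (adjusted p = 0.181); Uqcr10 was then listed at 0 in all remaining libraries on stiff gels and was not tested. The 7 core subunits of complex I all had a difference below 0, with a median of -2.57, and none passed the test.

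Set beside other genes, most members lay lower in aged cells on stiff gels. The median difference over the 82 members was -1.03 and that over all genes tested 0.49, a gap of -1.52. The median of log2(scaled TPM + 1) over all genes tested was 3.42, 0 and 0 in the aged libraries and 0 in each neonate one. The aged libraries covered 12371, 6850 and 5842 genes and 57, 35 and 33 members. The neonate ones covered 6598 to 7327 genes and 52 to 57 members. The part of this breadth in the gap was not tested. Relative to the median of all genes, 64 members lay lower and 18 higher; the median was -1.96 in complex I, -1.20 in complex II, -1.87 in complex III, -0.49 in complex IV and -1.52 in complex V. Cox5b went the other way, at 309, 607 and 1414 in aged, against 273, 513 and 233 in neonate cells, with a difference of 1.01 ± 0.61 (adjusted p = 0.506). In bulk RNA, fewer cells of a type and less RNA per cell cannot be told apart. Microglial markers summed to 172 to 402 scaled TPM in aged, against 34.4 to 52.5 in neonate cells on stiff gels, with 12 of 12 and 3 of 12 of them above 0 in any library, and OPC markers to 79.4 to 444 against 894 to 1657; their part in the differences was not tested. The number of called members was 7, all lower, without the 3 libraries with many olfactory receptor genes, 6 without replicate 1 of the aged cells on stiff gels, 5 (4 lower and 1 higher) without replicate 3 of these and 1 without replicate 1 of the neonate cells on stiff gels. The shares of all genes called in these fits are not reported here, so the counts do not set the members beside other genes.

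**Figure D3:**
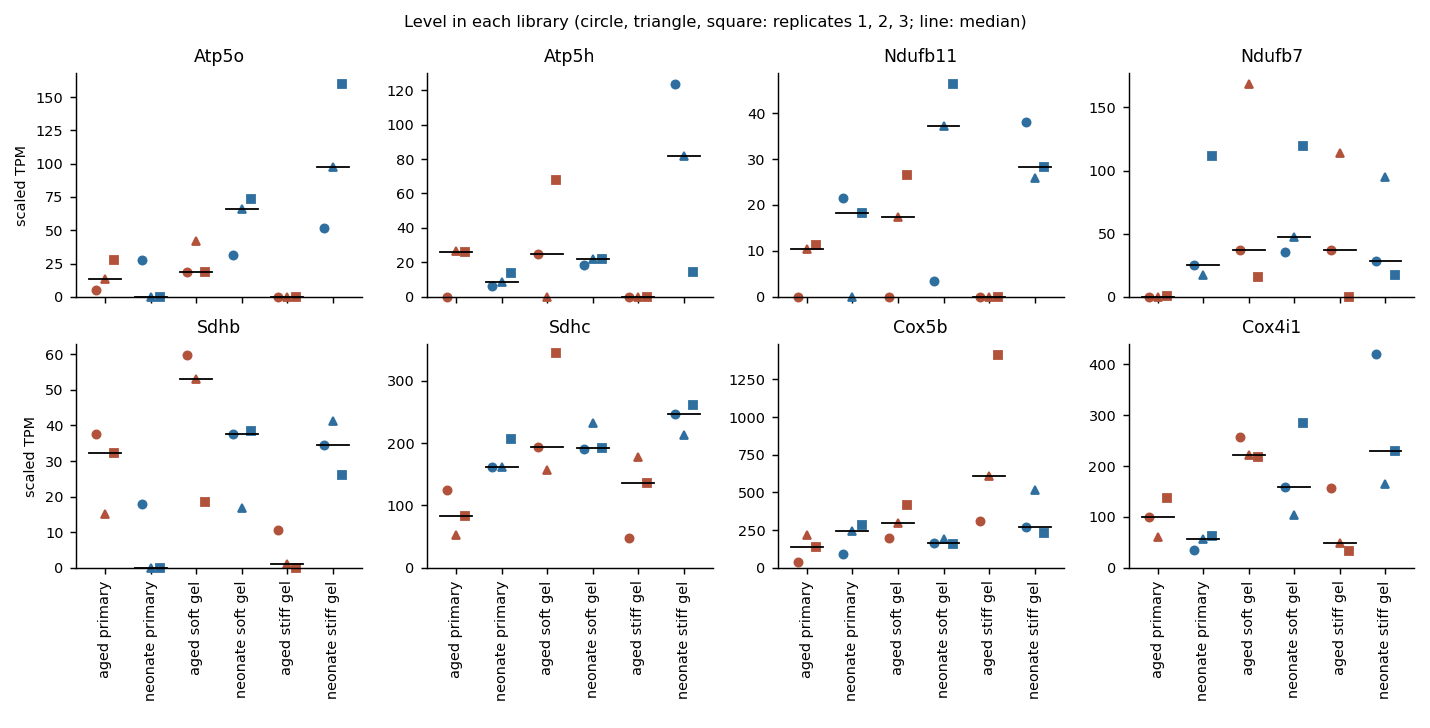
Scaled TPM of 8 members in each library (linear axes from 0), with replicates 1 to 3 as symbols and the group median as a line; red is aged and blue is neonate. Atp5o, Atp5h and Ndufb11 are at 0 in all 3 aged libraries on stiff gels, Ndufb7 is at 0, 0 and 0.568 in aged primary cells, and Cox5b is highest in aged cells on stiff gels.

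On soft gels no member was called between aged and neonate cells (limma, or 1 member, lower, with voom weights), beside 1.55% of all genes. At an unadjusted p under 0.05 (limma) were 8 of 82 members and 2507 of all 15128 genes tested. The lowest p in the downward direction was that of Atp5d, the delta subunit of the F1 stalk, at 0, 0 and 6.35 scaled TPM in aged, against 32.3, 62.0 and 41.4 in neonate cells, a difference of -4.52 ± 1.33 (adjusted p = 0.0840). Cox7a2 (-2.49 ± 1.06, adjusted p = 0.237) and Ndufs4, an accessory subunit of the peripheral arm (-3.01 ± 1.32, adjusted p = 0.253), came next. Cox7a2, named again below, was above 0 in 3 libraries and overlaps LOC100363289 on the opposite strand. It rested on 0, 0.380 and 0.747 read pairs in neonate cells on soft gels and on 0.540 in replicate 1 of the aged cells on stiff gels. The lowest p in the upward direction were those of Cox8c (4.68 ± 1.55, adjusted p = 0.130), Cox8b (3.82 ± 1.31, adjusted p = 0.143) and Atp5g3 (2.45 ± 1.15, adjusted p = 0.283). None of these passed the test. Without the 3 broadly covered libraries Cox8c differed by 3.70 ± 1.31 (adjusted p = 0.137), and Cox8b did not pass the filter on low values.

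On soft gels, too, most members lay below the median of all genes. The median difference was -0.24 over the members and 0.86 over all genes tested, a gap of -1.10 with 61 members below the median of all genes and 21 above. The gap was -1.58 in complex V, -1.20 in complex IV, -1.19 in complex I, -1.05 in complex III and -0.55 in complex II. All 4 genes of complex II had a difference above 0. Over all members, 38 differences were above 0 and 43 below. Wholly lower in aged cells were 5 members (6.10%), Atp5a1, Atp5b, Atp5d, Cox8a and Ndufs4, beside 3.68% of all genes, and wholly higher were 2 (2.44%), Cox5b and Cox8c, beside 16.1%. Atp5a1 was at 60.5, 114 and 95.2 in aged, against 139, 136 and 165 scaled TPM in neonate cells. The aged libraries on soft gels covered 10536 to 13861 genes and the neonate ones 7834 to 9629; the part of this breadth in the median of all genes was not tested. All 12 microglial markers were above 0 in aged cells on soft gels (summed 276 to 469) and 9 in neonate cells (48.9 to 122, with Cx3cr1, Aif1 and C1qa at 0). OPC markers summed to 317 to 650 scaled TPM in aged, against 1258 to 1575 in neonate cells on soft gels, without overlap. The part of these cell types in the differences was not tested.

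In primary cells 1 member was called between aged and neonate cells, beside 2.60% of all genes. Ndufb7, a supernumerary subunit of the membrane arm of complex I (rn6 chr19:24701067-24705405, plus strand), was at 0, 0 and 0.568 scaled TPM in aged, against 25.2, 17.6 and 112 in neonate primary cells, the latter from 2.36, 0.875 and 6.90 read pairs. The difference was -5.03 ± 1.19 (adjusted p = 0.0173), and the groups did not overlap. The call was lost without the 3 broadly covered libraries (adjusted p = 0.0661), without each aged primary library in turn and without neonate primary replicate 3 (highest adjusted p = 0.131). Outside the aged primary cells, Ndufb7 was listed at 0 in 1 of 15 libraries, replicate 3 of the aged cells on stiff gels.

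The remaining primary differences did not pass the test. Sdhb differed by 3.37 ± 1.02 (adjusted p = 0.0796), Atp5o by 2.16 ± 1.01 (adjusted p = 0.364) and Atp5s, a factor named with the ATP synthase, by 2.58 ± 1.23 (adjusted p = 0.376). Sdhc differed by -1.09 ± 0.52 (adjusted p = 0.371) and Sdhd by -3.07 ± 1.46 (adjusted p = 0.373). Wholly lower in aged cells were 7 members (8.54%), Atp5a1, Atp5b, Cox6a1, Cox8a, Ndufa10, Ndufb7 and Sdhc, beside 4.98% of all genes, and wholly higher were 3 (3.66%), Atp5s, Cox7c and Uqcrh, beside 11.1%. The median over the members was 0.36 and over all genes tested 0.69, a gap of -0.33. The gap was 0 without aged primary replicate 1 and -0.92 without aged primary replicate 3. Microglial markers were far more abundant in the aged than in the neonate primary cells, as given above, and their part in these values was not tested.

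The comparison of soft with stiff gels asks whether expression differs between the 2 substrates. The libraries also differed in breadth. Those of aged cells covered 10536 to 13861 genes on soft and 5842 to 12371 on stiff gels. Those of neonate cells covered 7834 to 9629 and 6598 to 7327. The part of this breadth in the differences was not tested. In aged cells no member was called (limma, and 0 with voom weights), beside 0.0793% of all genes called. At an unadjusted p under 0.05 (limma) were 12 of 82 members, and the share of all genes at that level is not reported here. Atp5o was again first, at 18.6, 41.6 and 18.5 scaled TPM on soft, against 0, 0 and 0 on stiff gels, a difference of 4.66 ± 1.01 (adjusted p = 0.0837). Sdhb differed by 3.78 ± 1.02 (adjusted p = 0.155) and Cox4i1, at 257, 221 and 218 on soft gels, by 1.87 ± 0.59 (adjusted p = 0.226). Lower on soft gels, and also not past the test, were Atp5j (-2.06 ± 1.02, adjusted p = 0.466), Cox5b (-1.13 ± 0.61, adjusted p = 0.502) and Atp5d (-2.26 ± 1.33, adjusted p = 0.564).

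Of the 82 members, 8 (9.76%) were wholly higher on soft gels in aged cells, beside 6.64% of all genes, and 0 were wholly lower, beside 1.69%. Among the 8 were Atp5g3, Atp5o, Cox4i1, Ndufa10, Ndufa7, Ndufb8 and Sdhb. The median over the members was 0.68 and over all genes 0.59, so that the members lay 0.09 above the other genes. Without replicate 1 of the aged cells on stiff gels 3 members were called, all higher on soft gels, and the gap was -0.23. The share of all genes called in that fit is not reported here. The remaining libraries on stiff gels covered 6850 and 5842 genes, and those on soft gels 10536 to 13861, so breadth and stiffness cannot be told apart there. Microglial markers summed to 276 to 469 on soft and 172 to 402 on stiff gels in aged cells, and OPC markers to 317 to 650 and 79.4 to 444, so both overlapped; their part was not tested.

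In neonate cells no member was called between soft and stiff gels (limma, and 0 with voom weights), beside 0% of all genes called. An unadjusted p under 0.05 (limma) was reached by 4 of 82 members, and the share of all genes at that level is not reported here. The member of lowest p was Ndufs8, a core iron-sulphur subunit of complex I, at 0, 5.36 and 0 scaled TPM on soft, against 26.1, 40.3 and 12.4 on stiff gels (-3.74, ±2 SE from -6.34 to -1.13), with an adjusted p of 1. Ndufb4 (-2.97 ± 1.61) and Ndufb2 (-1.77 ± 0.99) were next in that direction, and Cox7a2 (2.49 ± 1.06), Ndufaf7 (2.89 ± 1.28) and Cox6b2 (2.95 ± 1.35) in the other. Wholly higher on soft gels were 2 members (2.44%, Atp5a1 and Ndufaf7), beside 3.81% of all genes, and wholly lower 3 (3.66%, Cox5b, Ndufb5 and Ndufs8), beside 2.53%. The gap between the medians was -0.05.

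The effect of stiffness was not shown to differ between ages for any member. In the interaction of age and stiffness 0 members were called (limma, and 0 with voom weights), beside 0.00661% of all genes called. Unadjusted p-values under 0.05 (limma) were found for 11 of 82 members, and the share of all genes at that level is not reported here. The effect of soft against stiff in aged cells, less the same effect in neonates, was 5.45 ± 1.43 for Atp5o (adjusted p = 0.607), 5.98 ± 1.84 for Ndufs8 (adjusted p = 0.738) and 2.45 ± 0.83 for Cox4i1 (adjusted p = 0.759). In each of these genes the soft minus stiff difference was above 0 in aged cells (4.66, 2.25 and 1.87) and below 0 in neonate cells (-0.79, -3.74 and -0.58). In the opposite direction were Cox7a2 (-3.88 ± 1.50, adjusted p = 0.837), Atp5d (-3.87 ± 1.88, adjusted p = 0.943) and Atp5j (-2.91 ± 1.45, adjusted p = 0.943).

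Cells on gels were then compared with the primary cells of the same age, taking the mean of soft and stiff gels. In neonate cells 1 member rose, beside 0.0992% of all genes. Atp5o was at 27.5, 0 and 0 scaled TPM in primary cells and, as given above, between 31.4 and 160 in the 6 gel libraries, a difference of 4.55 ± 0.88 (adjusted p = 0.0213), with no overlap. The call held under 9 of 20 alternatives and was lost, among others, without neonate primary replicate 2 or 3 (highest adjusted p over the alternatives = 0.341).

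In neonate cells most members lay higher on gels than in primary cells. Of the 82, 7 (8.54%) were wholly higher in the gel libraries, beside 1.22% of all genes, and 0 wholly lower, beside 2.41%. The 7 were Atp5e, Atp5h and Atp5o of complex V, Cox4i1 and Cox6a1 of complex IV, Uqcrh of complex III and Ndufb5 of complex I. Cox4i1 was at 35.3, 57.5 and 62.3 scaled TPM in primary cells, 159, 104 and 285 on soft, against 420, 164 and 230 on stiff gels. Atp5e was at 115, 67.8 and 51.7 in primary cells, 192, 227 and 572 on soft, against 267, 444 and 433 on stiff gels, a difference of 2.14 ± 0.54 (adjusted p = 0.166). Sdhb differed by 3.59 ± 0.88 (adjusted p = 0.152). The lowest p in the other direction were those of Ndufaf3 (-2.01 ± 1.04), Atp5j2 (-2.49 ± 1.38) and Uqcrfs1, the Rieske iron-sulphur protein (-2.13 ± 1.34), each with an adjusted p of 1. The median over the members was 0.42 and that over all genes 0, with 59 members above it and 18 below; it was highest in complexes II (0.98) and V (0.79). The gap between the medians was 0.17 with voom weights. OPC markers summed to 770 to 872 scaled TPM in neonate primary cells and to 894 to 1657 on gels, microglial markers to 129 to 242 against 34.4 to 122, and neuronal markers to 150 to 332 against 70.9 to 153. Of the markers, P2ry12, of microglia (-5.12 ± 0.92, adjusted p = 0.0127), and the haemoglobin gene Hba1 (-6.15 ± 0.99, adjusted p = 0.00309) were lower on gels; the part of other cells in the values of the members was not tested.

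In aged cells 1 member rose on gels, beside 1.11% of all genes. Ndufb7, at 0, 0 and 0.568 scaled TPM in aged primary cells, was at 36.9, 169 and 15.7 on soft, against 36.9, 114 and 0 on stiff gels, a difference of 4.58 ± 1.03 (adjusted p = 0.0206); the groups overlap through the last of these libraries. The call was lost without the 3 broadly covered libraries (adjusted p = 0.125), without each aged primary library in turn, without replicate 2 of the aged cells on soft gels, and with the aged libraries fitted alone. Cox5b, at 39.2, 217 and 135 in primary cells, 201, 297 and 420 on soft, against 309, 607 and 1414 on stiff gels, differed by 2.04 ± 0.52 (adjusted p = 0.0530), and Ndufb8 by 2.64 ± 0.99 (adjusted p = 0.291). Lower on gels without passing the test were the assembly factors Ndufaf3 (-3.81 ± 1.04, adjusted p = 0.0724) and Ndufaf6 (-2.31 ± 0.91, adjusted p = 0.327), and Ndufb10 (-3.45 ± 1.05, adjusted p = 0.128). Ndufaf6 was at 31.1 in aged primary replicate 1, a broadly covered library, and without the 3 such libraries it did not pass the filter on low values.

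Wholly higher on gels in aged cells was 1 member (1.22%), Cox8a, at 126, 96.3 and 121 scaled TPM in primary cells and 130 to 538 on gels, beside 0.813% of all genes. Wholly lower was 1 member, Ndufaf3, beside 2.93%. The gap between the medians of members and all genes was -0.04. Microglial markers summed to 2740 to 4601 scaled TPM in aged primary cells and to 172 to 469 on gels. Blood markers summed to 366 to 2479 in aged primary cells, 0.596 to 59.0 on soft and 3.28 to 7.09 on stiff gels. For OPC markers the sums were 86.1 to 186, 317 to 650 and 79.4 to 444. The part of these cell types in the values of the members was not tested.

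**Figure D4:**
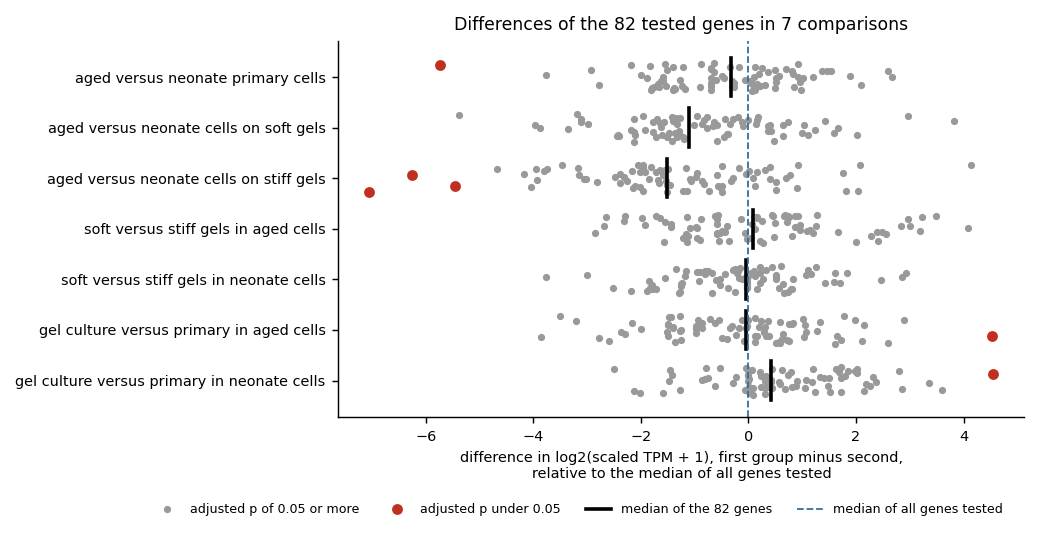
Difference of each of the 82 tested members (points, 1 per gene) in 7 comparisons, in log2(scaled TPM + 1) relative to the median of all genes tested (dashed line at 0). Red points passed an adjusted p of 0.05 and black bars mark the member median, which lies at -1.52 on stiff gels, -1.10 on soft gels and 0.42 in the neonate comparison of gels with primary cells.

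The change from primary cells to gels differed with age for 1 member, beside 0.112% of all genes. Atp5o rose from primary to gel cells in neonates and differed by -1.44 ± 0.88 (adjusted p = 0.681) in aged cells, and the difference between these changes was -5.99 ± 1.24 (adjusted p = 0.0459). This call held under 6 of 28 alternatives and was lost, among others, without the 3 broadly covered libraries (adjusted p = 0.0675) and in 14 of the 18 fits that left out 1 library. Next below 0 were Sdhb (-4.94 ± 1.25, adjusted p = 0.187) and Ndufs7, a core iron-sulphur subunit of complex I (-4.23 ± 1.54, adjusted p = 0.639), and above 0 Ndufb7 (4.27 ± 1.46, adjusted p = 0.584), Cox5b (1.70 ± 0.74, adjusted p = 0.790) and Sdhd (3.29 ± 1.79, adjusted p = 0.935), none of which passed the test. The median over the members was -0.85 and over all genes tested 0.09, a gap of -0.94, with 59 members below the median of all genes and 23 above. The gap was -0.40 with voom weights and -1.34 without the 3 broadly covered libraries. Both changes in this interaction share their primary and gel libraries with the comparisons above.

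Other genes of mitochondrial energy metabolism were described from 5 lists outside the family. The lists were electron carriers (6 of 7 genes tested), assembly factors of complexes III and IV (16 of 19), regulators of mitochondrial biogenesis (12 of 13), citrate cycle enzymes (15 of 15), and carriers and import proteins of the inner membrane (18 of 19). Between aged and neonate primary cells 1 regulator was lower and 1 carrier higher, on soft gels 1 assembly factor and 1 carrier were higher, and on stiff gels 1 carrier was higher and 1 lower, beside the shares of all genes given above. No gene of these lists was called in the comparisons of soft with stiff gels, of gels with primary cells or of the interactions, where between 0 and 168 of all genes tested were called.

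The carrier that was higher in aged cells in all 3 comparisons was Ucp2, an uncoupling protein of the inner membrane that macrophages are known to express. It was at 124, 247 and 209 scaled TPM in aged, against 20.0, 0 and 40.0 in neonate primary cells (4.29 ± 1.06, adjusted p = 0.0243). On soft gels it was at 162, 133 and 37.9 in aged, against 0, 10.0 and 0 in neonate cells (5.41 ± 1.06, adjusted p = 0.00530), and on stiff gels at 74.8, 77.9 and 64.8 in aged cells and listed at 0 in all 3 neonate libraries (6.20 ± 1.06, adjusted p = 0.000866). The aged and neonate libraries did not overlap in any of the 3 comparisons, and the microglial marker sums given above differed in the same direction; their part was not tested.

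Slc25a4, the carrier that exchanges ADP for ATP across the inner membrane, was lower in aged cells on stiff gels, at 22.8, 15.8 and 180 against 222, 331 and 302 scaled TPM (-2.76 ± 0.67, adjusted p = 0.0230). Tfb1m, a methyltransferase of mitochondrial ribosomal RNA, was at 16.3, 0 and 0 in aged, against 94.7, 65.7 and 85.6 in neonate primary cells (-4.99 ± 1.15, adjusted p = 0.0151). Cox11, a copper chaperone of complex IV that the naming rule does not take in, was higher in aged cells on soft gels, at 30.8, 107 and 64.8 against 8.49, 5.71 and 10.1 (2.77 ± 0.69, adjusted p = 0.0364). None of these 3 genes had aged and neonate libraries that overlapped in the comparison named.

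The median over the members differed between libraries. It was 0 on the log2(scaled TPM + 1) scale in replicates 2 and 3 of the aged cells on stiff gels, which covered 6850 and 5842 genes and 35 and 33 members, and from 2.26 to 4.53 in the other libraries, which covered 45 to 66 members. Neonate cells on stiff gels covered 6598 to 7327 genes and 52 to 57 members. The genes whose levels ranked the libraries most like this median, among 1629 genes above 0 in all 18 libraries, were Espl1 (Spearman rho = 0.84), Ptprn (0.77) and Ap2m1 (0.74). These are descriptions over libraries that differ in depth and breadth.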

How the data were processed

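The authors deposited, per library, transcript tables from StringTie 1.3.2d run against a fixed annotation of UCSC rn6 with a minimum length of 100, per the file headers; the submitters' processing notes also name Trimmomatic, HISAT2 and Bowtie. The libraries were made with a stranded low-input total RNA kit and read as pairs of 150 bases, per the labels' protocols; a strand option does not appear in the file headers, so reads of overlapping genes were not told apart. Each deposited transcript line holds coverage, FPKM and TPM, other values than counts. TPM were summed per gene, divided by median-of-ratios factors over 1644 genes above 0 in all libraries, kept where at least 1 in 3 libraries, and tested as log2(value + 1) with limma 3.58.1 (R 4.3.3): 6 group means over all 18 libraries, trended variance, 9 contrasts, Benjamini-Hochberg adjustment over 15128 genes, threshold 0.05. Differences understate the change of low genes. Read pairs were estimated as coverage times transcript length over 300 bases. Ribosomal RNA counts 5 named genes and 2 unnamed genes beside them. The 5 members that failed the filter were Ndufa1, Ndufa11, Ndufa12, Cox4i2 and Cox6c-ps1. The script was tested on simulated data. Members, lists and tests were chosen with earlier results of these data known. Members named are those called, the 3 highest of each complex, complex II, tissue isoforms, and in comparisons with fewer than 6 calls the 3 of lowest p in each direction. Alternatives were 10 other settings, the fit without the 3 broadly covered libraries, and leaving out each library. The numbers inside the file headers differ from those in the titles, so replicate numbers were not taken to pair samples. Promoters came from RefSeq (GRCr8). Some values of single genes are not reported here.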

Additional observations from a re-analysis of the deposited data

Results flagged for a closer look

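The change of Atp5o from primary cells to gels differed between aged and neonate cells: the difference between the 2 changes was -5.99 on the log2(scaled TPM + 1) scale (limma interaction term, adjusted p = 0.0459). It rests on listed values of 0 in neonate primary replicates 2 and 3 and in all 3 aged libraries on stiff gels.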

How the results depend on the processing

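No named member changed direction under any alternative run. The number of called members in aged against neonate cells on stiff gels was 3; leaving out 1 library gave 1 to 6, and leaving out the 3 broadly covered libraries gave 7. In aged against neonate primary cells it was 1; it was 4 with array weights, 2 with only the groups compared and 0 without the 3 broadly covered libraries, and 0 to 3 without 1 library. On soft gels it was 0 between ages, 1 with voom, 1 with only the groups compared, and 0 to 1 without 1 library. Between soft and stiff gels in aged cells it was 0, and 0 to 3 without 1 library; in neonate cells and in the interaction of age and stiffness it was 0 in all fits run. For gels against primary in aged cells it was 1, 2 with quantile normalization, 2 with TPM rescaled without ribosomal RNA, 2 with voom, 0 with only the groups compared, 0 without the 3 broadly covered libraries, and 0 to 3 without 1 library. In neonate cells it was 1; it was 0 with a pseudocount of 0.1, 0 without scaling, 0 with quantile normalization, 0 with TPM rescaled without ribosomal RNA, 5 with array weights, and 0 to 2 without 1 library. For the interaction of age and culture it was 1; it was 0 with a pseudocount of 0.1, with no filter, without scaling, with quantile normalization, with TPM rescaled without ribosomal RNA, with voom and without the 3 broadly covered libraries, and 0 to 2 without 1 library. Fitting only the groups compared gives no other value for this interaction, which uses all groups. Except where libraries were left out, the cause was not tested. Shares of all genes called under the alternatives, here and below, are not reported, so these counts do not set the members beside other genes.

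With the replicate number as a block, called members were 2 in aged against neonate primary cells, 2 in aged gels against primary, 0 in the interaction of age and culture and 4 in aged against neonate cells on stiff gels. Libraries that share a number correlated at a median of 0.0125 (-0.0927 to 0.234 over 45 pairs) and those that do not at -0.00225 (-0.22 to 0.121 over 90 pairs), so the numbers were not taken as pairs. The gap between the median of the members and that of all genes stayed below 0 in both comparisons of age on gels (-1.81 to -0.80 on stiff, -1.61 to -0.59 on soft gels). It stayed above 0 for gels against primary in neonate cells (0.17 to 0.61) and below 0 in the interaction of age and culture (-1.34 to -0.40). It changed sign or reached 0 under 7 alternatives between soft and stiff gels in aged cells (-0.23 to 0.32), 7 for gels against primary in aged cells (-0.52 to 0.27), 3 between soft and stiff gels in neonate cells (-0.45 to 0) and 1 between ages in primary cells (-0.92 to 0). Depth limits all single genes: a member's level often rests on fewer than 3 read pairs.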
